A study of Mus musculus with 3 samples.

Results

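Among the cells of 3 kidney libraries from FA-treated mice, 975 of 73281 barcodes had the transcripts of large peritoneal macrophages, the resident macrophages of the abdominal cavity. They were taken as cells with 1672 UMIs or more, 200 genes or more and no more than 50% of UMIs from mitochondrial genes, in which at least 3 of 7 genes (Prg4, Alox15, F5, Selp, Vsig4, Tgfb2 and Garnl3) were detected. At least 1 of the 3 macrophage genes Adgre1, Csf1r and Tyrobp also had to be detected, and Lrp2, Slc34a1, Slc12a1 and Cd3g, which mark tubule cells and T cells, could have at most 2 UMIs together. They are called peritoneal-like macrophages here, since the cells were dissociated from kidneys and their place in the tissue is not recorded in the counts.

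Kidneys were collected on day 14 after folic acid (FA), an agent that injures the renal tubules. The samples were 2 Aoah-/- mice (replicates 2 and 3, called by these numbers) and 1 WT mouse (replicate 3), aged 6 to 8 weeks by the labels, with 1 droplet library per mouse, and every animal had received FA. Aoah-/- mice lack acyloxyacyl hydrolase, an enzyme that inactivates lipopolysaccharide, in all cells and had been backcrossed to C57BL/6J, and WT mice were littermates with the intact gene. The study's other FA experiments used male mice and the intraperitoneal route, while the labels of these libraries name neither sex nor route. After perfusion with PBS the kidneys were minced and digested with collagenase and DNase, passed through a strainer and freed of red cells, with no sorting of cells by type stated.

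Large peritoneal macrophages are long-lived cells that depend on the transcription factor Gata6 and on retinoic acid made by the mesothelium and the fat of the abdominal cavity. They carry Timd4 (Tim-4), a receptor for phosphatidylserine on dying cells, and Icam2, and have little MHC class II, whereas the small macrophages of the same cavity derive from monocytes and have abundant MHC class II. Macrophages of the kidney itself make complement C1q and present antigen on MHC class II, and were the cells used for comparison.

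The peritoneal-like macrophages were spread very unevenly over the libraries. Aoah-/- mouse 2 had 913 of them, its fellow mouse 3 had 10, and the WT mouse had 52, of 15441, 19692 and 13271 cells that passed the limits on UMIs, genes and mitochondrial share. In the order Aoah-/- mouse 2, Aoah-/- mouse 3, WT mouse, they made up 5.91% (exact binomial 95% interval 5.55 to 6.30%), 0.0508% (0.0244 to 0.0934%) and 0.392% (0.293 to 0.514%) of these kept cells, and values in threes follow this order throughout. The libraries with the most and the fewest were both Aoah-/-, and the WT mouse lay between them. The intervals cover counting error alone. Mesothelial cells, taken as cells with at least 2 of 4 mesothelial genes, did not follow the same order, with 3, 0 and 120 cells.

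C1q macrophages, with all of C1qa, C1qb and C1qc detected, under 3 UMIs of Gpnmb and the same other limits, were far more evenly spread, with 725, 1040 and 593 cells. They made up 4.70%, 5.28% and 4.47% of the kept cells in the same order. Peritoneal-like cells thus formed 55.7% of both classes together in Aoah-/- mouse 2, but 0.952% in mouse 3 of that genotype and 8.06% in the WT animal.

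**Figure D1:**
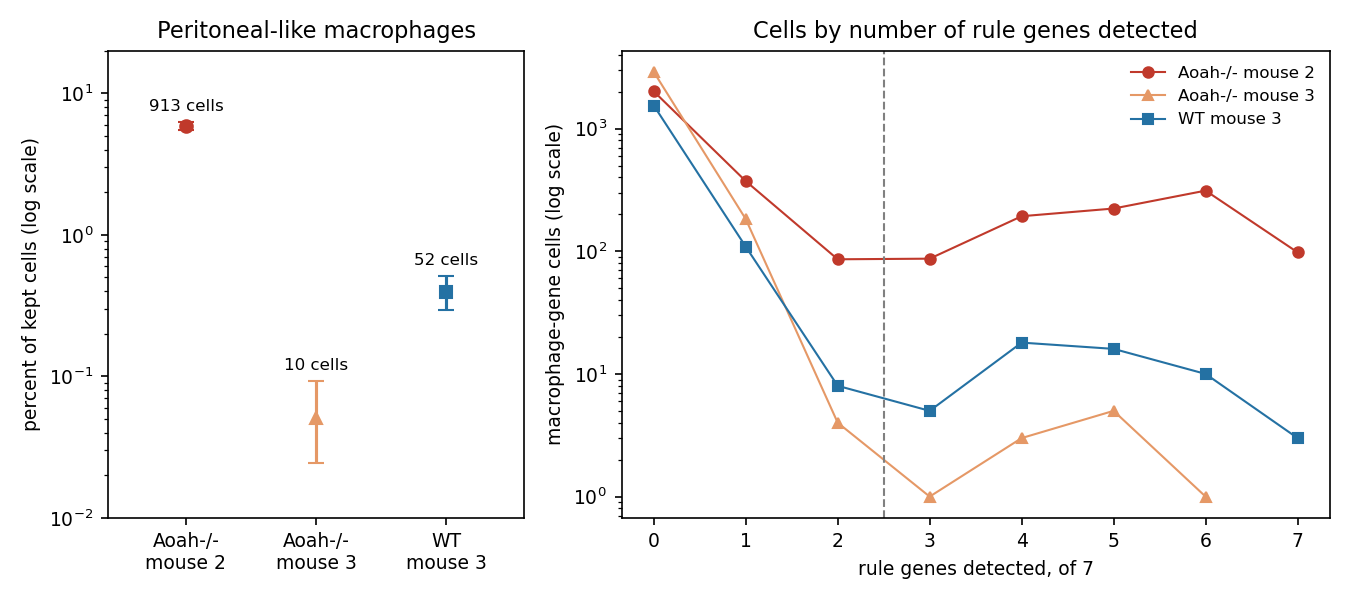
Left: peritoneal-like macrophages as percent of kept cells on a log scale, with exact binomial 95% intervals and cell numbers (913, 10 and 52). Right: cells with a macrophage gene and without tubule or T cell transcripts, by how many of the 7 rule genes were detected (log scale, no point where there were no cells, rule limit dashed); each library has more cells at 4 and at 5 genes than at 3.

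The cells were more often well inside the rule than at its limit. The median was 5 of the 7 genes in each library, and 826, 9 and 47 of the cells had at least 4. Just inside the rule, with exactly 3 genes, stood 87, 1 and 5 cells, and just outside it, with exactly 2, stood 86, 4 and 8 cells. In Aoah-/- mouse 2, Saa3, which the rule did not use, was at 3153 UMIs per 1000000 UMIs (CPM) in the cells with 2 genes, 6814 CPM in those with 3 and 10132 CPM in those with 4. The 8 cells with 2 genes in the WT mouse had 6902 CPM of Saa3 and the 4 such cells in Aoah-/- mouse 3 had 21.4 CPM, so that the cells just outside the rule had abundant Saa3 in 2 of the libraries and not in the third.

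Peritoneal-like macrophages had a median of 6175, 6048 and 8608 UMIs, against 4451, 4707 and 4320 UMIs in C1q macrophages. Their median mitochondrial share was low at 5.24%, 6.24% and 6.42%. Few of them lay above the 90th percentile of UMIs of their own library (2.08%, 0% and 1.92%). Summed over the cells they gave 6121808, 63286 and 455658 UMIs, so that levels in Aoah-/- mouse 3 rest on few molecules, and a count of 0 there allows up to 47.4 CPM, against 0.490 CPM in mouse 2 of that genotype and 6.58 CPM in the WT mouse. Pairs of libraries shared 171 to 176 barcodes, and no peritoneal-like cell had its barcode among the peritoneal-like cells of another library.

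Levels are UMIs of a gene per 1000000 UMIs of the class in a library, and differences are log2((CPM + 10)/(CPM + 10)) of peritoneal-like over C1q macrophages within a library, given as mean ± SD over the 3 libraries. A gene counts as higher or lower if it differed by at least 2-fold on this scale in every library. Because the cells were chosen by their own counts and the WT group has 1 library, there is no test, and these are descriptions of the 3 libraries.

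Of 2966 genes with a mean of at least 50 CPM in either class, 228 were higher in peritoneal-like macrophages (7.69%) and 226 lower (7.62%), together 15.3%. The median over all 2966 genes was a log2 ratio of 0.02. A gene that passed the minimum in one class alone had to stand higher there, so counts over genes that passed describe the levels and are no support for the label. Taken singly, the libraries gave 336, 526 and 338 higher genes and 305, 525 and 363 lower ones, with the larger numbers in Aoah-/- mouse 3, where 10 cells were summed. Of the 226 lower genes, 88 were at 0 in that library, and for 41 of these the level that a count of 0 allows there would not be 2-fold lower. Among the genes named below this holds for Retnla, Itgax, Batf3, Il4ra and Mmp14, for which a 2-fold difference was not detectable in that library at this depth. Ciita and Plau were not at 0 there but were also under the 47.4 CPM that a count of 0 allows, and the same limit holds for them.

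**Figure D2:**
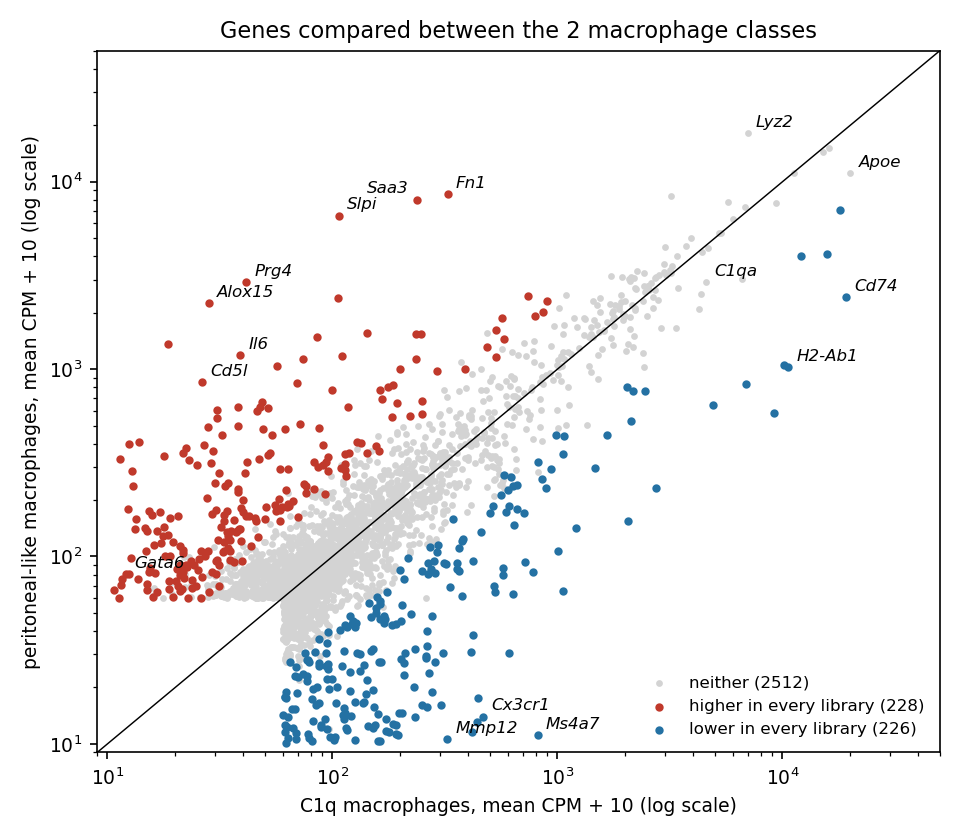
Mean level over the 3 libraries of each of 2966 genes in C1q (x) and peritoneal-like macrophages (y), as CPM + 10 on log scales, with the line of equal levels. Red and blue points are the 228 genes higher and the 226 genes lower in every library, with Slpi, Saa3 and Fn1 high above the line and Ms4a7, Cx3cr1 and Mmp12 near the bottom.

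The 7 genes of the rule were abundant in the cells they chose, as a description of the choice. Prg4, which encodes lubricin, a lubricating glycoprotein, was at 3195, 2718 and 2783 CPM against 84.7, 0.172 and 8.90 CPM in C1q macrophages. Alox15, a lipoxygenase that oxidizes arachidonic and linoleic acid, was at 2098, 2433 and 2203 CPM. After each cell was thinned to 1672 UMIs, Prg4 was found in 96.5%, 100% and 98.1% of the cells and Alox15 in 88.2%, 90% and 88.5%, so these genes marked nearly every cell in each mouse. F5, coagulation factor V, was at 577, 237 and 347 CPM, and Selp, the adhesion molecule P-selectin, at 346, 348 and 268 CPM. F5 and Selp are neighbours on chromosome 1 (Selp at chr1:164115264-164150026 and F5 at chr1:164151838-164220277 on GRCm38, both on the plus strand), with 1811 bases between them. Tgfb2, a TGF-beta ligand, was at 594, 316 and 283 CPM, the complement receptor gene Vsig4 at 166, 174 and 169 CPM, and Garnl3 at 168, 111 and 116 CPM.

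Markers that the rule did not use were read beside the label. Of 16 such markers of large peritoneal macrophages, 14 reached the minimum level, 13 of these were higher than in C1q macrophages, and their median log2 ratio was 4.04, beside 0.02 over all genes, or 3.85 over all 16 with no minimum. However, 10 of the 14 passed the minimum through the peritoneal-like cells alone, which fixes the direction of their difference. The other 4 passed it in both classes, and of these Saa3, Fn1 and Itga6 were higher and Cd93 was not. Saa3 was given as a marker together with the label, although the rule did not use it. Of these 4, Fn1, Itga6 and Cd93 alone were thus chosen apart from the label's own markers. Cd93 had a log2 ratio of 0.34 ± 0.61, and Rarb and Wt1 stayed under the minimum.

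Saa3, serum amyloid A3 of the acute phase, was at 10113, 4409 and 9540 CPM in the peritoneal-like cells and at 526, 2.93 and 150 CPM in C1q macrophages. Fn1, fibronectin, was at 8293, 9323 and 8146 CPM against 585, 120 and 240 CPM. These 2 genes were far apart between the classes in each library, with a log2 ratio of 6.19 ± 2.10 for Saa3 and 5.0 ± 1.18 for Fn1, and for both the smallest ratio was that of Aoah-/- mouse 2.

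Gata6 itself was at 95.9, 63.2 and 52.7 CPM against 4.13, 0.689 and 1.53 CPM in C1q macrophages (log2 ratio 2.71 ± 0.24). It was found in 14.2%, 10.0% and 11.5% of the cells thinned to 1672 UMIs, against 0.966%, 0% and 0.337% of C1q macrophages. In Aoah-/- mouse 3 the share was 1 of 10 cells and the level rested on 4 UMIs of Gata6. Timd4 was at 496, 332 and 215 CPM against 23.8, 1.72 and 9.21 CPM, and Icam2 at 540, 490 and 588 CPM against 30.5, 13.1 and 18.4 CPM. Icam2 was thus nearly level over the mice, whereas Timd4 was lowest in the WT mouse.

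Cd5l, a scavenger protein secreted by resident macrophages, was at 752, 774 and 996 CPM against 46.2, 0 and 2.76 CPM. Serpinb2, which inhibits plasminogen activators, was at 1322, 2070 and 641 CPM against 24.5, 0.517 and 0.614 CPM. The integrin Itga6 was at 1087, 1169 and 1117 CPM against 85.2, 61.3 and 45.7 CPM and varied little between the mice.

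**Figure D3:**
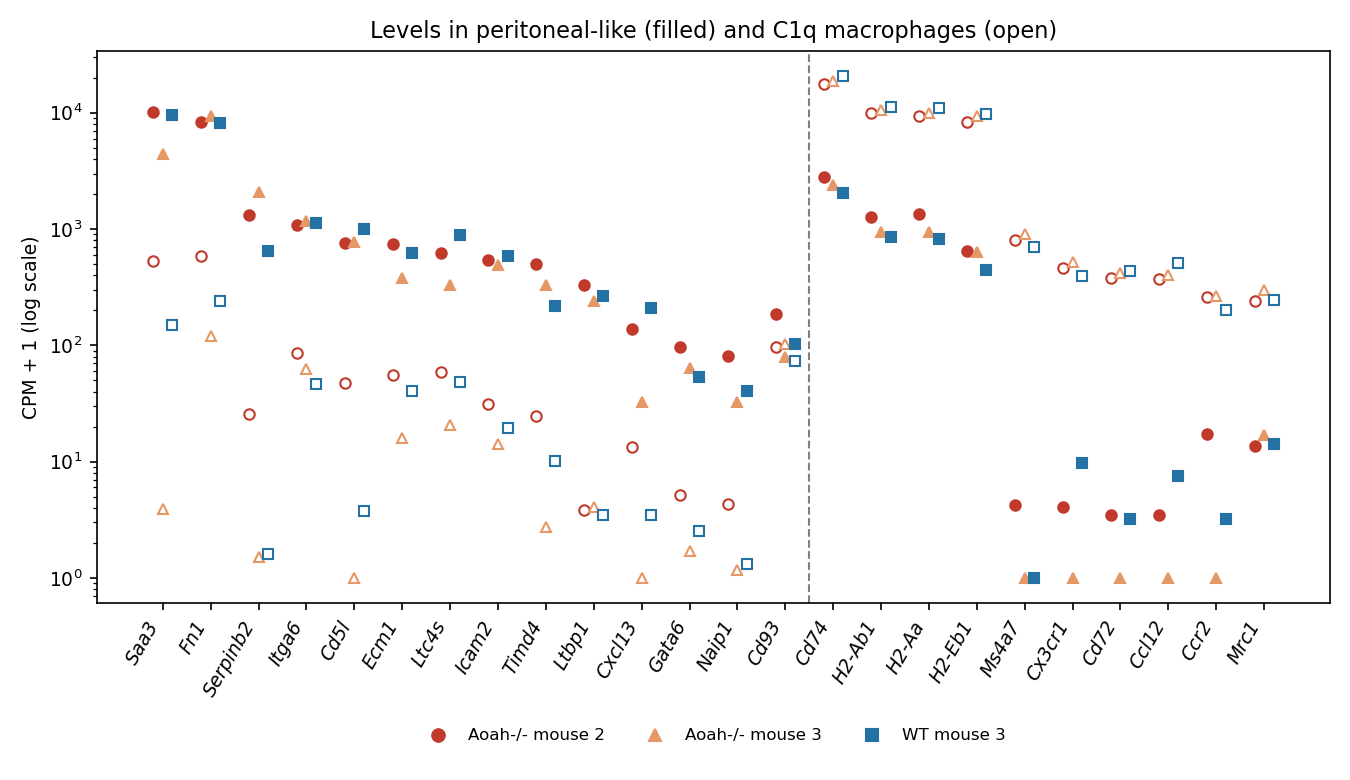
Level of each gene as CPM + 1 on a log scale in peritoneal-like (filled) and C1q macrophages (open) of the 3 libraries. Left of the dashed line are the 14 markers of large peritoneal macrophages not in the rule, right of it are MHC class II genes and genes low in the peritoneal-like cells; the filled and open points overlap for Cd93 alone.

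Transcripts abundant in these cells were also found in other cells, for Saa3 most often in the library with the most peritoneal-like cells. At 1672 UMIs per cell, Saa3 was detected in 98.5%, 100% and 94.2% of peritoneal-like macrophages and in 13.8%, 0.192% and 1.35% of C1q macrophages. It was detected in 9.90%, 0.0770% and 1.05% of T cells and in 5.86%, 0.0501% and 0.400% of proximal tubule cells, the 2 types taken beforehand as a measure of free RNA. Whether free RNA, droplets with more than 1 cell or the cells' own transcripts lie behind these shares was not tested. Each of the 3 shares in other cells was highest in Aoah-/- mouse 2, the library with 913 peritoneal-like cells. The log2 ratios for Saa3 (4.24), Fn1 (3.80), Prg4 (5.08) and Cd5l (3.76) were smaller in Aoah-/- mouse 2 than in Aoah-/- mouse 3 (8.42, 6.17, 8.07 and 6.29). With the C1q macrophages limited to the cells with none of the 7 rule genes (582, 1004 and 556 cells, a choice made after the data were seen), their Saa3 level was 47.3, 3.09 and 1.65 CPM.

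**Figure D4:**
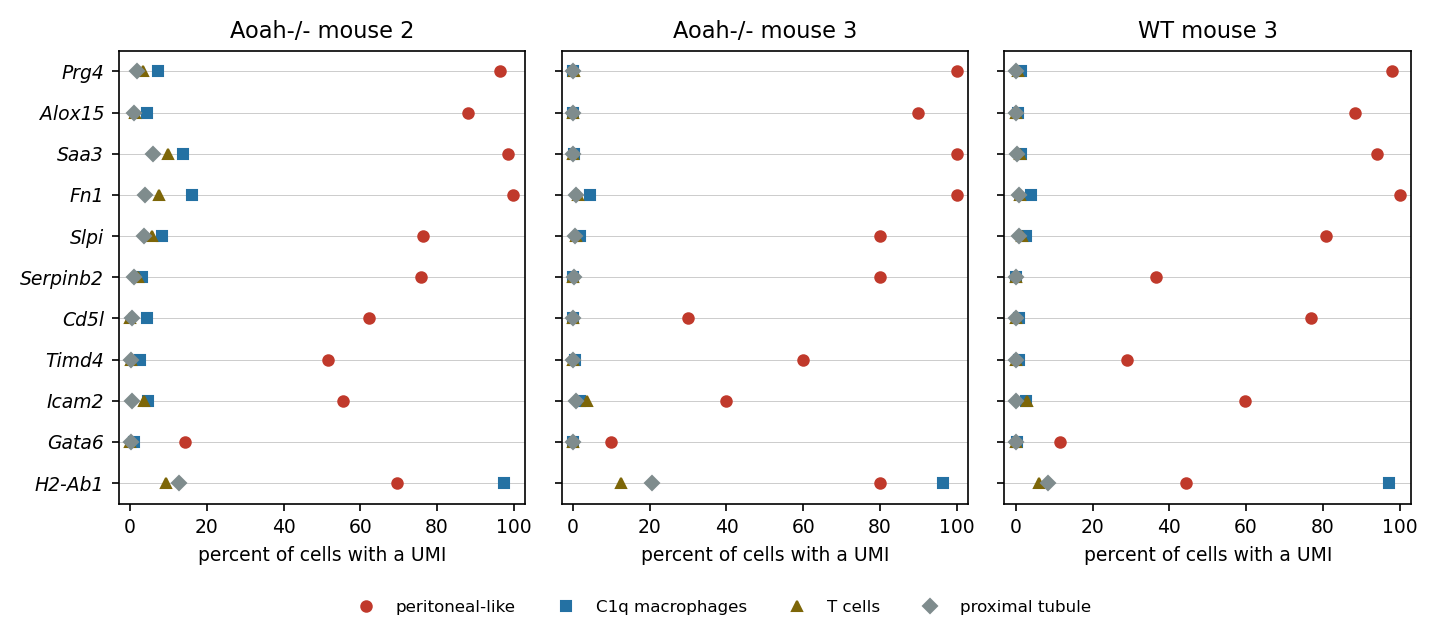
Percent of cells with at least 1 UMI of each gene after every cell was thinned to 1672 UMIs, in each library, for peritoneal-like macrophages, C1q macrophages, T cells and proximal tubule cells. Saa3 is found in 98.5%, 100% and 94.2% of the peritoneal-like cells and in 9.90%, 0.0770% and 1.05% of T cells, and H2-Ab1 is less frequent in peritoneal-like than in C1q macrophages.

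The 15 genes with the highest ratios outside the rule held, beside 6 of the markers named above (Serpinb2, Saa3, Cd5l, Fn1, Ltbp1 and Icam2), several secreted proteins. Slpi, an inhibitor of leukocyte proteases, was at 6582, 3223 and 9928 CPM against 220, 16.2 and 53.4 CPM in C1q macrophages, with a log2 ratio of 6.36 ± 1.33. Slpi was found in 76.2%, 80.0% and 80.8% of the thinned cells. Il6, the cytokine interleukin 6, was at 1157, 1912 and 476 CPM against 69.7, 5.69 and 10.7 CPM, and Thbs1, the matrix protein thrombospondin 1, at 1989, 3982 and 1168 CPM against 196, 60.6 and 31.3 CPM. Both had their highest level in Aoah-/- mouse 3 and their lowest in the WT mouse. Ednrb, the endothelin B receptor, was at 571, 553 and 654 CPM, against at most 34.7 CPM in C1q macrophages. Complement C4b (2123, 1280 and 1018 CPM), Prtn3, Emilin2 and the chemokine Ccl24 also belonged to the group.

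Because Gata6 was among the markers that were higher, the promoters of the leading genes were searched for GATAA, the core that GATA factors bind, or its reverse complement TTATC, in the 250 bases before each start in RefSeq (GRCm38.p6). Of 29 genes of the rule, the markers and the 15 highest that were higher in the peritoneal-like cells, 19 had such a window, and 5 of them (26.3%) held the motif, against 25.5% of all 27025 genes in the table. The share of these genes is thus close to that of all genes, and a match is only a match of letters. The 5 genes were Cd5l, Il6, Saa3, Serpinb2 and Slpi. The windows of Cd5l (chr3:87357631-87357880, plus strand), Saa3 (chr7:46715677-46715926, minus strand) and Slpi (chr2:164356508-164356757, minus strand) are shown to place the motif, in capitals, before these 3 abundant transcripts. They are written 5′ to 3′ on the strand of the gene, and the motif begins 126, 134 and 16 bases before the start.
Cd5l: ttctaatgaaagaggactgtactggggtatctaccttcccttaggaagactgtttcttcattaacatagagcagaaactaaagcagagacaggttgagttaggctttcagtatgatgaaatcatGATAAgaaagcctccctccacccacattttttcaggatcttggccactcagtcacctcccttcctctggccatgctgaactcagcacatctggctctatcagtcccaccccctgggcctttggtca
Saa3: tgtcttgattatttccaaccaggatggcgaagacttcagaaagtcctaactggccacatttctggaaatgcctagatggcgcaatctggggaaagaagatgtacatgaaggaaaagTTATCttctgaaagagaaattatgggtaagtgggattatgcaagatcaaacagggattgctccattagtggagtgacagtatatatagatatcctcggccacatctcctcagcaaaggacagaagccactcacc
Slpi: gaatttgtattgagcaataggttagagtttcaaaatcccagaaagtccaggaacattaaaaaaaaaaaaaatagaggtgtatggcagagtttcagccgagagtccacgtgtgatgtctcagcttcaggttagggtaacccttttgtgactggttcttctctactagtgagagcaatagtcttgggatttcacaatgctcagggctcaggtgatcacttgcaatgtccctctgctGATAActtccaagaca

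At the other end stood the genes that were lowest in the peritoneal-like cells relative to C1q macrophages. The 15 lowest were Ms4a7, Cd72, Cx3cr1, Ccl12, Mmp12, AF251705, Basp1, Plbd1, Slamf7, Itgb5, Mgl2, Ccr2, Ccl8, Cd83 and Lst1. Ms4a7, a membrane protein of macrophages, was at 3.27, 0 and 0 CPM in peritoneal-like cells against 810, 907 and 703 CPM in C1q macrophages, with a log2 ratio of -6.21 ± 0.29. Cx3cr1, the fractalkine receptor of tissue macrophages, was at 3.1, 0 and 8.78 CPM against 462, 521 and 390 CPM. Mmp12, the macrophage elastase, was at 1.80, 0 and 0 CPM against 264, 240 and 434 CPM. All 3 were thus near or at 0 in the peritoneal-like cells of each mouse.

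MHC class II genes were low throughout. All 7 genes of the list that reached the minimum level (Cd74, H2-Ab1, H2-Aa, H2-Eb1, H2-DMb1, H2-DMa and Ciita) were lower, Ciita with the limit given above for Aoah-/- mouse 3. Their median log2 ratio was -2.98, and 4 genes stayed under the minimum. Cd74, the invariant chain, was at 2818, 2370 and 2056 CPM against 17723, 18679 and 20749 CPM. H2-Ab1 was at 1274, 932 and 847 CPM against 9883, 10629 and 11142 CPM, and Ciita, the activator of the class II genes, at 8.66, 15.8 and 2.19 CPM against 52.2, 53.6 and 50.9 CPM. The class II genes were nevertheless not silent, since H2-Ab1 was found in 69.6%, 80.0% and 44.2% of the thinned cells, against 12.7%, 20.6% and 8.26% of proximal tubule cells. None of the 11 MHC class I genes was higher or lower. MHC genes have close copies that can share reads, and their levels are less certain for that reason.

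Markers of the small peritoneal macrophage were low as well. Of 6 genes on its list 3 reached the minimum, and all 3 were lower, Retnla with the limit given above for Aoah-/- mouse 3: Ccr2, the receptor that draws monocytes out of the blood, was at 16.2, 0 and 2.19 CPM against 258, 264 and 202 CPM, Mrc1, the mannose receptor, at 12.6, 15.8 and 13.2 CPM against 239, 296 and 242 CPM, and Retnla at 130, 0 and 560 CPM against 274, 50.1 and 1619 CPM. In Ly6c2+ monocytes of the same libraries, Ccr2 was at 468, 516 and 363 CPM and Prg4 at 16.4, 0 and 0 CPM. Of the 6 monocyte markers 3 reached the minimum, with Ccr2 lower and Plac8 and Chil3 neither.

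General macrophage genes were shared with the C1q macrophages. Adgre1, the F4/80 antigen, was at 838, 616 and 632 CPM against 343, 315 and 277 CPM. Csf1r was at 422, 237 and 439 CPM against 656, 708 and 532 CPM. Adgre1 and Csf1r were both among the macrophage genes read in choosing the cells of either class, so their presence is in part set by the choice. C1qa was at 2403, 2449 and 3823 CPM against 4432, 4670 and 4623 CPM in cells chosen for it, so the peritoneal-like cells had ample C1q. Lyz2, lysozyme, was at 14570, 11187 and 28758 CPM against 6856, 7415 and 6691 CPM. These 4 genes were neither higher nor lower under the 2-fold limit in every library.

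Markers of several other cell types were low, while those of the proximal tubule and of Gpnmb macrophages were not. No marker of B cells, T cells, endothelium, mesothelium, fibroblasts, eosinophils, mast cells or dendritic cells reached a mean of 50 CPM in either class. The 6 mesothelial markers summed to 21.9, 0 and 0 CPM, with Krt19 the most abundant. Of the platelet list, Pf4 alone reached the minimum, at 977, 569 and 3037 CPM against 219, 250 and 240 CPM, while the other 5 platelet genes stood at 15.8 CPM or less in each library and 4 of the 6 genes were at 0. The 5 markers of Gpnmb macrophages summed to 1162, 1169 and 1211 CPM against 1220, 1148 and 1042 CPM, led by the tetraspanin Cd9. At least 2 of them were found in 30.0%, 60% and 34.6% of the peritoneal-like cells and in 13.4%, 18.4% and 8.09% of C1q macrophages, which were chosen for few UMIs of Gpnmb. Cd9 was higher, Trem2 and Spp1 were lower, and Gpnmb itself stayed under the minimum. The 5 proximal tubule markers summed to 868, 1564 and 720 CPM in the peritoneal-like cells and to 1067, 1324 and 1049 CPM in C1q macrophages, led by Kap, and 3 of them reached the minimum and were neither higher nor lower. At least 2 of the 5 were found in 24.9%, 30% and 26.9% of the peritoneal-like cells and in 26.8%, 28.8% and 26.1% of C1q macrophages. Umod, of the ascending limb, was likewise neither higher nor lower. The rule limits Lrp2, Slc34a1, Slc12a1 and Cd3g to 2 UMIs together in both classes, so the low and like levels of the tubule and T cell lists are in part set by it. Cells without any UMI of 8 genes of B cells, T cells, endothelium, mesothelium and proximal tubule numbered 376 of 913, 3 of 10 and 24 of 52, and the median of the markers not in the rule was 4.02 over these cells in the 2 libraries that kept 10 of them. In the same cells 5 of the 124 named genes that were higher or lower were no longer called, none changed sign, and the MHC class II median was -3.36.

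The functional groups below were gene lists counted in the same way, against a background of 7.69% of genes higher and 7.62% lower. In the plot of gene groups, coagulation, complement, adhesion, acute phase and eicosanoid genes had medians above 1 and MHC class II and chemokines below -1. Those of the complement, eicosanoid and acute phase genes were 0.37, 0.28 and 0.08 with no minimum level, so that they lie above 1 for the more abundant genes of these groups only. The acute phase median was 0.52 without the WT mouse. F5, Vsig4, Alox15, Selp and Tgfb2 chose the cells, and the groups that hold one of them are also given without it. Of the genes outside the rule that passed the minimum in C1q macrophages, 4 of 9 complement, 6 of 14 adhesion, 3 of 10 acute phase and 2 of 9 eicosanoid genes were higher. The 7.69% is over all genes that passed in either class and is no background for these counts. The share over all genes that passed in C1q macrophages was not computed, so these counts are descriptions only.

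**Figure D5:**
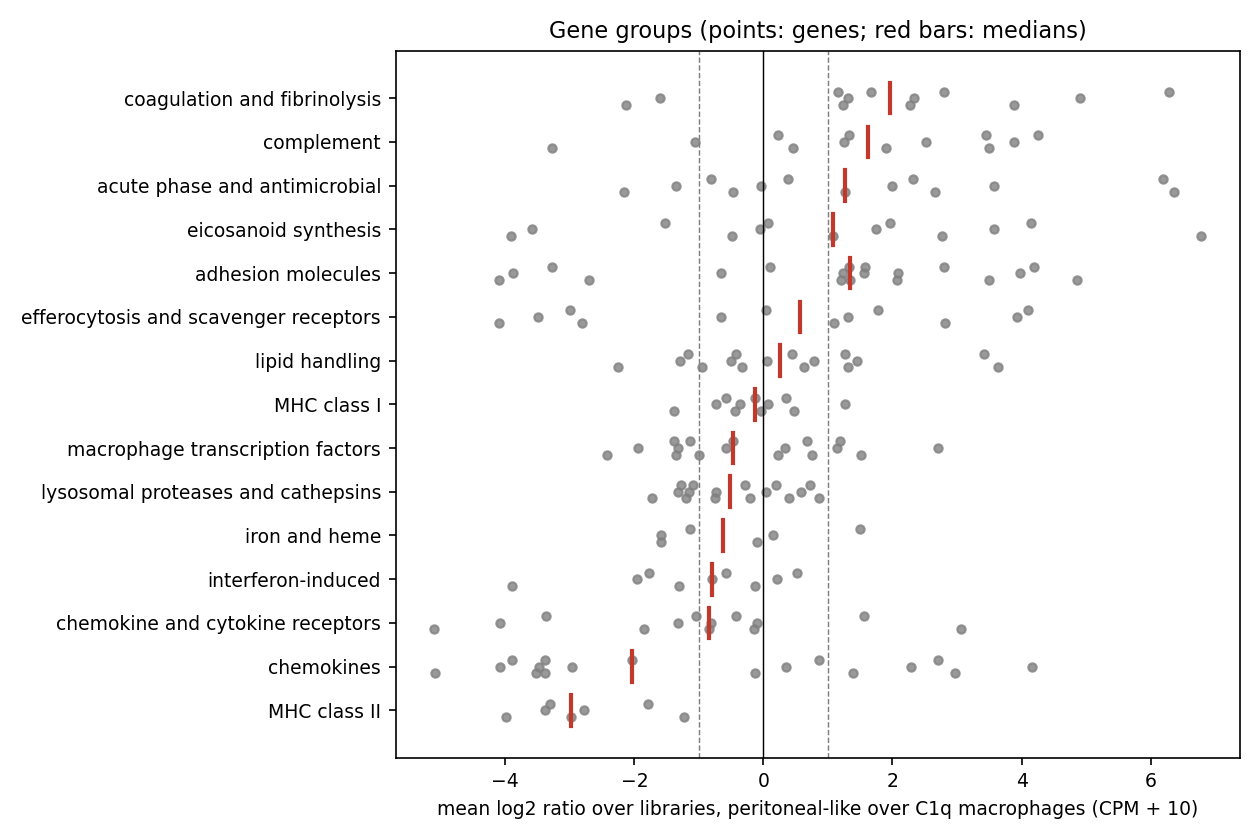
Mean log2 ratio over the 3 libraries, peritoneal-like over C1q macrophages (CPM + 10), of the genes of 15 groups that reached 50 CPM (points, rule genes included) and the median of each group (red bars); dashed lines mark 2-fold. Every MHC class II gene lies below -1, while the chemokines reach from far below to far above 0.

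Of 12 measured genes of coagulation and fibrinolysis, 6 were higher and 1 lower, with a median log2 ratio of 1.97, or 5 higher of 11 and 1.66 without F5. These 5 all passed the minimum through the peritoneal-like cells alone, and of the 5 genes that passed it in C1q macrophages 0 were higher. The higher ones hold procoagulant factors (F5, which is in the rule, F10 and F7) as well as Serpinb2 and Pros1, which act against proteolysis or clotting. F10, coagulation factor X, was at 673, 632 and 555 CPM against 61.7, 11.7 and 39.0 CPM, and Pros1, protein S, the cofactor of activated protein C, at 186, 126 and 156 CPM against 27.4, 19.6 and 21.5 CPM. Plau, the urokinase plasminogen activator, was lower, with the limit given above for Aoah-/- mouse 3, at 10.6, 15.8 and 2.19 CPM against 65.9, 76.0 and 74.6 CPM. F3, tissue factor, was at 62.4, 111 and 15.4 CPM against 11.9, 6.20 and 9.82 CPM and did not count as higher, with a log2 ratio of 0.36 in the WT mouse.

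Of 12 complement genes, 7 were higher (among them C4b, Vsig4, Itgam, Cfp, Cfb and C1ra) and Itgax was lower, with a median of 1.62. Without Vsig4, which the rule used, 6 of 11 were higher and the median was 1.33. Cfp, properdin, which stabilizes the convertase of the alternative pathway, was at 1158, 1169 and 1174 CPM against 124, 66.3 and 110 CPM and hardly varied between the mice. Itgam and Itgax, the alpha chains of complement receptors 3 and 4, went opposite ways: Itgam was at 1589, 1817 and 1244 CPM against 194, 99.2 and 106 CPM, and Itgax at 1.63, 0 and 0 CPM against 99.2, 92.3 and 83.2 CPM.

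Of 13 eicosanoid genes, 6 were higher, all of them enzymes of synthesis (Alox15, Alox5, Ltc4s, Ptgis, Ptgs1 and Ptgs2), and Hpgd, Hpgds and Pla2g7 were lower. Alox15 is a gene of the rule, and without it 5 of 12 were higher and the median fell from 1.07 to 0.57. Ptgis, prostacyclin synthase, was at 309, 142 and 233 CPM against 4.13, 0.517 and 4.30 CPM, and Ltc4s, leukotriene C4 synthase, at 622, 332 and 887 CPM against 57.6, 19.6 and 47.3 CPM. Hpgd, which breaks prostaglandins down, was at 5.72, 0 and 2.19 CPM against 142, 163 and 242 CPM, and Hpgds, which makes prostaglandin D2, at 1.47, 0 and 0 CPM against 104, 125 and 118 CPM.

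Receptors for dying cells and modified lipids stood on both sides. Timd4, Marco, Msr1, Lrp1 and Cd36 were higher and Itgb5, Mrc1, Stab1 and Axl lower, of 12 measured. Marco, a scavenger receptor for bacteria and particles, was at 526, 111 and 320 CPM against 35.9, 0.172 and 3.07 CPM. Axl, a receptor tyrosine kinase for dying cells, was at 19.6, 31.6 and 11 CPM against 212, 205 and 180 CPM, while its relative Mertk was neither (65.5, 63.2 and 48.3 CPM against 24.0, 20.5 and 21.8 CPM).

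Acute phase and antimicrobial genes had a median of 1.26, with 5 of 13 higher (Slpi, Saa3, Lrg1, Lyz1 and Hp) and Il1rn, the interleukin 1 receptor antagonist, lower. The median rested on the WT mouse, with 0.92, 0.59 and 2.10 in the single libraries and 0.52 over both Aoah-/- mice, and was 0.68 with a looser definition of C1q macrophages. Lrg1 was at 206, 158 and 132 CPM against 12.1, 3.27 and 0.307 CPM. S100a8 and S100a9, the calgranulins of neutrophils, stood at 20.6, 15.8 and 59.3 CPM and at 21.6, 31.6 and 176 CPM in the peritoneal-like cells. In C1q macrophages they were at 89.4, 88.0 and 20.6 CPM and at 204, 219 and 73.3 CPM, so the order of the classes in the WT mouse was opposite to that in both Aoah-/- mice. Both levels in the peritoneal-like cells of Aoah-/- mouse 3 were under the 47.4 CPM that a count of 0 allows there. At that level S100a8 would not be 2-fold lower. Whether neutrophil RNA has a part in the opposite order was not tested. The neutrophil marker Retnlg was at 0.490, 0 and 21.9 CPM in the peritoneal-like cells and at 1.55, 8.27 and 1.84 CPM in C1q macrophages, and Csf3r at 97.0, 63.2 and 90 CPM against 39.3, 37.2 and 27.6 CPM.

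The chemokines were divided, with 4 of 17 higher and 9 lower and a median of -2.04. Ccl24 (445, 1027 and 377 CPM against 32.8, 2.58 and 48.5 CPM), which attracts eosinophils, Cxcl13, which attracts B cells, and the neutrophil attractant Cxcl1 (1709, 1849 and 1003 CPM against 314, 157 and 205 CPM) were higher, as was Pf4. Cxcl13 rested on 2 UMIs in Aoah-/- mouse 3. The lower ones were Ccl2, Ccl7, Ccl8 and Ccl12, which attract monocytes, the inflammatory chemokines Ccl3, Ccl4 and Ccl5, and Cxcl9 and Cxcl16. Ccl12 was at 2.45, 0 and 6.58 CPM against 371, 402 and 509 CPM, and Ccl4 at 543, 1628 and 285 CPM against 5507, 6097 and 9094 CPM. Cxcl2, at 6968, 10350 and 7971 CPM against 3483, 2734 and 3381 CPM, stood just under the limit in Aoah-/- mouse 2. Of 13 measured chemokine and cytokine receptors, Ackr3 and Ccr1 were higher and Cx3cr1, Ccr2, Cxcr4 and Il4ra lower.

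Adhesion molecules held 10 higher and 4 lower genes of 19, with a median of 1.34, or 9 higher of 18 and 1.33 without Selp, which is in the rule. Beside Selp, Icam2, Itga6 and Itgam, the higher ones included Itgb7, Itgb2, Selplg, Itgb1 and Cd9. Selplg, the ligand of P-selectin, was at 469, 300 and 415 CPM against 132, 118 and 121 CPM and was not used by the rule. Vcam1 was at 6.21, 0 and 2.19 CPM against 160, 200 and 166 CPM.

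Among TGF-beta genes other than the rule gene Tgfb2, the latent binding protein Ltbp1 and the activator Thbs1 were higher, and the receptor Tgfbr1 and the repressor Skil lower, of 8 measured. Tgfbr1 was at 21.2, 0 and 8.78 CPM against 230, 235 and 198 CPM, and Tgfb1 was neither. Of 17 transcription factors of macrophages, Gata6 was higher and Batf3 and Atf3 lower, and 14 were neither, among them Cebpb (2414, 2749 and 2249 CPM against 1205, 1107 and 930 CPM). The 3 retinoid genes that reached the minimum (Rara, Rxra and Dhrs3) did not count as higher or lower, with a median of 1.14, against 0.11 over the list with no minimum level.

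Lysosomal genes had 4 lower and 12 neither of 16 (median -0.52, and -0.33 without Aoah-/- mouse 3), and the iron genes Fth1 and Hmox1 were lower of 6. Fth1, ferritin heavy chain, was at 4055, 4029 and 3988 CPM against 11509, 12536 and 12348 CPM. Of 16 lipid genes, the fatty acid binding proteins Fabp4 and Fabp7 and the transporter Cd36 were higher and Trem2 was lower. Apoe, which carries cholesterol, stood at 7523, 7885 and 17866 CPM against 21096, 23243 and 15712 CPM, so that the WT mouse alone had no more of it in C1q macrophages than in the peritoneal-like cells. Interferon-induced genes held 2 lower (Cxcl9 and Bst2) of 9, and matrix genes 4 higher (Fn1, Thbs1, Ecm1 and Timp2) and 5 lower (Mmp12, Mmp13, Mmp14, Lgals1 and Lgals3) of 12.

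Of 20 genes for the recognition of lipopolysaccharide, 4 reached the minimum. Lbp, which carries lipopolysaccharide to its receptor, was higher at 92.8, 111 and 61.4 CPM against 2.58, 0.689 and 4.91 CPM, as was Naip1, of a family of sensors of bacterial proteins, while Cd14 and Tlr2 were neither. Lbp and Naip1 passed the minimum through the peritoneal-like cells alone. Aoah, the gene deleted in 2 of the mice, was scarce in the peritoneal-like cells: 3.27, 0 and 8.78 CPM, against 2.84, 3.62 and 23 CPM in C1q macrophages and 12.7, 12.0 and 27.9 CPM in proximal tubule cells. Counts at the 3′ end do not show which part of the gene is lost and are no check of the genotype.

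The peritoneal-like cells were also compared among themselves, by genes detected in the thinned cells. Timd4 was found in 472 and not found in 441 of the thinned cells of Aoah-/- mouse 2, while the WT mouse had 15 cells with and 37 without it, and Aoah-/- mouse 3 had 6 and 4. In their full counts the cells without it still held 288, 38.6 and 48.2 CPM of Timd4, so the split is by detection at this depth and does not mark cells that lack the gene. The summed level of H2-Aa, H2-Ab1, H2-Eb1 and Cd74 was 5487 CPM in cells with and 6650 CPM in cells without Timd4 in Aoah-/- mouse 2, and 1136 and 4827 CPM in the WT mouse. In Aoah-/- mouse 3 the order was opposite, with 5165 CPM in the 6 cells with and 4475 CPM in the 4 cells without it. Cells with Timd4 were shallower in every library (median 5726 against 6994 UMIs, 4872 against 7190 UMIs and 4687 against 10492 UMIs). The part of depth in these values was not tested.

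Cxcl13 was found in 96, 0 and 7 of the thinned cells. In the 96 cells of Aoah-/- mouse 2, Saa3 was at 14139 CPM against 9707 CPM in the others, Vsig4 at 291 against 154 CPM, and the 4 class II genes at 3928 against 6298 CPM. The 7 cells of the WT mouse had 791 CPM of class II against 4526 CPM in the other 45, and Vsig4 at 542 against 129 CPM. Class II was thus lower in the cells with Cxcl13 in both mice, and so was depth, with a median of 5077 against 6322 UMIs and 3687 against 8930 UMIs. Vsig4, a gene of the rule, was higher in them. The part of depth in these differences was not tested. By the number of rule genes detected, H2-Ab1 was at 1735, 1872, 1624, 856 and 601 CPM in cells with 3, 4, 5, 6 and 7 of them in Aoah-/- mouse 2, whose median UMIs ran from 3667 to 6829. In the WT mouse it was at 489, 1220, 780, 645 and 276 CPM in the same order, over 5, 18, 16, 10 and 3 cells. In both it was highest with 4 genes and lowest with 7.

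Some of the cells were in cycle by their transcripts. At least 2 of 8 cycling genes were found in 38 of 913 thinned cells (4.16%, interval 2.96 to 5.67%), 1 of 10 and 0 of 52 (up to 6.85%). The shares were 1.93%, 1.92% and 2.19% in C1q macrophages, 4.32%, 3.47% and 6.16% in T cells and 0.269%, 0.426% and 0.540% in proximal tubule cells. Mki67 was at 55.2, 79.0 and 24.1 CPM and Top2a at 61.6, 158 and 26.3 CPM, and neither gene counted as higher or lower.

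Between libraries, the profile of the peritoneal-like cells was most alike in the 2 libraries with the most of them. Over 3131 genes, 3.39% differed by more than 2-fold between Aoah-/- mouse 2 and the WT mouse, against 17.2% between Aoah-/- mouse 2 and mouse 3 and 24.3% between Aoah-/- mouse 3 and the WT mouse. C1q macrophages, with many cells in each library, gave 0.926%, 1.15% and 0.671% for the same pairs. The larger shares go with the library of 10 cells.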

How the data were processed

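Per library, the authors deposited unnormalized UMI counts for 27998 genes, with barcodes that had already been called as cells. The labels name Cell Ranger 3.1.0, STAR, Seurat 4.2.0 and mm10, the file headers Cell Ranger 6.1.2, and filters on cells are not given in the sources used here. Barcodes started at 500, 1672 and 500 UMIs, and the highest of these was the limit for all libraries. The libraries held 167222984, 161015021 and 158551992 UMIs in 25516, 24693 and 23072 barcodes.

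The UMIs of a class were added up within each library and scaled to CPM, with numpy 2.4.6, pandas 2.3.3 and scipy 1.17.1. A pseudocount of 10 CPM and a minimum mean of 50 CPM in either class were used, shares have Clopper-Pearson 95% intervals, and cells were thinned to 1672 UMIs without replacement for shares of cells with a UMI. No doublet caller was run. The ratio and call were tested on simulated data. Gene positions are from GENCODE M21, matched for 443 of 443 genes. Trac, Clec7a, Lrrc33, Cebpd and Jaml were not analysed here, and some members of the lists are counted but not reported by name here.

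The members, markers and lists were chosen with earlier results of these data known. Named were all markers, the 15 genes with the highest and the 15 with the lowest mean ratio of 1 sign in every library, and the list genes with the largest differences. Ribosomal, mitochondrial and unnamed genes were left out of the 15. Alternatives in limits, definitions, pseudocount and libraries were computed, and 1 (C1q macrophages without rule genes) was added after the data were seen.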

Additional observations from a re-analysis of the deposited data

Results flagged for a closer look

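Some named genes stood on opposite sides in the 2 genotypes, with a sign of the log2 ratio of peritoneal-like over C1q macrophages in the WT mouse that was opposite to that in both Aoah-/- mice. This was so for 19 of 250 named genes that reached the minimum level (7.60%), beside 321 of all 2966 genes (10.8%), and some were near 0 in every library, such as Cd300a at -0.09 in the WT mouse against 0.02 and 0.21. The difference between genotypes was not tested, since there is 1 WT library. Differences of at least 2-fold in every library were found for S100a8 and S100a9 alone, among the named genes and among all. S100a8 had a log2 ratio of 1.18 in the WT mouse against -1.70 and -1.93 in Aoah-/- mice 2 and 3, and S100a9 1.15 against -2.76 and -2.46. In Aoah-/- mouse 3 both genes were under the 47.4 CPM that a count of 0 allows, a level at which S100a8 would not be 2-fold lower. At least 2 of 5 neutrophil markers were found in 1.92% of the 52 peritoneal-like cells of the WT mouse. Apoe was at 0.19 in the WT mouse against -1.49 and -1.56, and C1qc at 0.17 against -0.44 and -0.88. Cxcl10 was at -1.85 against 0.15 and 1.34. Top2a was at -0.50 against 0.79 and 2.05, Mki67 at -0.63 against 0.46 and 0.84, and C5ar1 at -0.32 against 0.37 and 1.34. In Aoah-/- mouse 3, Top2a and Mki67 were each found in 1 of the 10 thinned cells.

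Below the UMI limit of the rule, barcodes with 500 or more UMIs were used only in the shares computed with a limit of 500 UMIs. In Aoah-/- mouse 2, 48 of 5927 such barcodes met the rest of the rule (0.810%, exact binomial 95% interval 0.598 to 1.07%), and in the WT mouse 0 of 4931 did, which allows up to 0.0748%. Aoah-/- mouse 3 had no barcodes below the limit.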

How the results depend on the processing

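The order of the 3 libraries in the share of peritoneal-like cells was the same under every alternative. In Aoah-/- mouse 2 the share was 4.50% with a limit of 500 UMIs, 8.43% with at most 20% mitochondrial UMIs, 5.35% with at least 4 rule genes, 5.10% with rule genes counted after thinning, 6.75% without the cells above the 90th percentile of UMIs and 16.8% without cells with RNA of other types. In the WT mouse it was 0.286% with 500 UMIs and also after thinning, 0.542% with the mitochondrial limit and 1.31% without cells with RNA of other types, which gave 0.129% in Aoah-/- mouse 3. That step also removes most tubule cells and lymphocytes from the denominator, and leaves 376, 3 and 24 peritoneal-like cells. With a pseudocount of 50 CPM, 129 genes were higher and 146 lower, by construction of the scale, and under the other alternatives 211 to 309 were higher and 231 to 321 lower. In 3 of these settings, at least 4 rule genes, thinning and no cells with RNA of other types, a call covered 2 libraries only. A difference in every library is easier to meet there, which also holds for the named genes below. Leaving out 1 library gave 260 to 280 higher and 250 to 268 lower genes. The median log2 ratio of the markers not in the rule was 3.46 with at least 4 rule genes and 3.04 after thinning, both over the 2 libraries that then kept 10 cells, and 4.75 and 2.82 with pseudocounts of 1 and 50 CPM. It was 4.45 against C1q macrophages with no rule gene detected, and 3.83 to 4.21 without 1 library. The MHC class II median was -3.36 without cells with RNA of other types, -3.40 as the mean of per-cell CPM and -1.79 with no minimum level, where the 4 scarce genes enter, and the chemokine median was -1.0 with no minimum level. None of the 124 named genes that were higher or lower reversed its sign under any alternative, but 21 were no longer called with a pseudocount of 50 CPM, 11 after thinning and also with the loose C1q definition, 7 as the mean of per-cell CPM, and at most 5 under each of the others. The 2 classes were compared within each library, and so within each mouse. Mice were not paired across genotypes, since the labels give the shared replicate number 3 no further meaning. Precision is limited by the 10 cells of Aoah-/- mouse 3, in which genes at 0 may be at up to 47.4 CPM.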
